A study of Mus musculus with 10 samples.

Results

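The genes examined here are 9 components of TGF-beta signalling, measured in innate lymphoid cells (ILCs) of mouse skin. ILCs are tissue lymphocytes without rearranged antigen receptors. The members are the ligand Tgfb1, the receptors Tgfbr1, Tgfbr2 and Tgfbr3, the signal transducer Smad3, the inhibitor Smad7, the nuclear co-repressors Ski and Skil, and the feedback inhibitor Pmepa1. They were taken by symbol from the 47643 genes of each deposited table, and all 9 were among the 16208 genes with enough counts to be tested. The libraries came from sorted skin cells of adult B6 mice, with no treatment or genetic change named in the labels. There were 3 libraries of epidermal ILCs, 2 of dermal ILCs sorted as CCR6+, 2 of dermal ILCs sorted as Sca1+ and 3 of subcutaneous ILCs. The labels name no age in weeks, sex or number of animals per library, so p-values measure how far these libraries spread, and that spread may be technical.

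TGF-beta is secreted in a latent form and must be released before it binds. The active ligand is bound by the type II receptor, encoded by Tgfbr2, which recruits and phosphorylates the type I receptor, encoded by Tgfbr1. The type I receptor then phosphorylates SMAD2 and SMAD3, which enter the nucleus with SMAD4. Smad7, Skil and Pmepa1 are themselves induced by the pathway in many cell types, and with Ski they dampen it. In lymphocytes TGF-beta is known for sustaining residence in epithelia, in part through the CD103 integrin chain encoded by Itgae.

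Tgfbr1 was called different between groups, Tgfbr2 was not, and Smad3 was called in the direction opposite to Tgfbr1. The 250 bases before the annotated start of each of these genes are therefore shown, from RefSeq (GRCm38.p6), 5′ to 3′ on the strand of the gene. They lie at chr4:47352972-47353221 on the plus strand (Tgfbr1), chr9:116175364-116175613 on the minus strand (Tgfbr2) and chr9:63757995-63758244 on the minus strand (Smad3). Capitals mark the SMAD core motif CAGAC or its reverse complement GTCTG.
Tgfbr1: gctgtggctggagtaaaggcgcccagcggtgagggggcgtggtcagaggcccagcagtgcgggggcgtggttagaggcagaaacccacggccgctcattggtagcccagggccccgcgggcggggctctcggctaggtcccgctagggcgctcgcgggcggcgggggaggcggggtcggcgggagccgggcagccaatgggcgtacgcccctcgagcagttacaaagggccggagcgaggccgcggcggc
Tgfbr2: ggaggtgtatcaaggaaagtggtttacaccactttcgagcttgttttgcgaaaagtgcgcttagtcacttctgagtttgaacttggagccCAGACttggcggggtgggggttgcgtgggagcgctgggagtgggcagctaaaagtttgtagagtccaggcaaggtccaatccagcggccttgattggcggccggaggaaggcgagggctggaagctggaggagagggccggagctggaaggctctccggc
Smad3: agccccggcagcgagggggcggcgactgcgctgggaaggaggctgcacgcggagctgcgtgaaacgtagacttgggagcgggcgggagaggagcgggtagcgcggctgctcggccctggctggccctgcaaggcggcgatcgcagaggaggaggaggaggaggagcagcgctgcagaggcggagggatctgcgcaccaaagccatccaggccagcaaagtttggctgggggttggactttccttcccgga

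Of these windows, that of Tgfbr2 held 1 match to CAGAC on either strand, beginning 160 bases before the start, and those of Tgfbr1 and Smad3 held 0. A match was present in 42.2% of 32851 promoter windows of the same length. The SMAD palindrome GTCTAGAC, which shares AGAC with CAGAC and GTCT with GTCTG but contains neither whole, was in none of them and in 0.167% of all windows. The windows were GC-rich, with 74.8% G and C for Tgfbr1, 58.4% for Tgfbr2 and 69.2% for Smad3. Entries were found for 5 of the 9 members. Tgfbr3, Smad7, Skil and Pmepa1 had none. A second start of Tgfbr1, at a window from 47385966 to 47386215 on chromosome 4, held 1 match. These matches describe the letters in the windows and are not evidence of binding.

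The libraries held between 11627222 and 18118544 expected counts, and 3 counts corresponded to between 0.149 and 0.258 CPM (counts scaled to a common normalised library total). All 12 ILC marker genes had counts in every library, with a summed level of 7610 to 8681 CPM in epidermal and 12910 to 16540 CPM in the other libraries. Transcripts of other cell types differed strongly by layer. The 10 fibroblast markers summed to 8.43 to 37.1 CPM in epidermal libraries, against 1626 to 2866 in dermal CCR6+, 3382 to 4657 in dermal Sca1+ and 3641 to 5269 in subcutaneous libraries. The 11 macrophage, dendritic and Langerhans cell markers summed to 44.7 to 53.7, 479.2 to 496.4, 633.1 to 1367 and 4673 to 8472 CPM in the same order, and the 8 endothelial markers to 3.83 to 7.86, 152 to 352.7, 504.7 to 507.2 and 273.8 to 563.5. The 7 mast cell markers summed to at most 0.139 CPM in epidermal libraries, 37.3 to 49.7 in dermal CCR6+, 345.7 to 425.5 in dermal Sca1+ and 157.3 to 351.2 in subcutaneous libraries. Keratinocyte markers, 10 in all, went the other way, from 2884 to 7975 CPM in epidermal through 1477 to 2215 in dermal to 61.9 to 111.7 in subcutaneous libraries. Cdh5, Plvap, Kdr, Tek, Cldn5, Pdgfra, Mrc1, Itgax, Mcpt4, Cma1, Ms4a2, Fcer1a, Plin1, Cidec and Lep had 0 counts in the epidermal libraries, which allows up to 3 counts in each. Such cells also express TGF-beta pathway genes, and in bulk libraries fewer cells of a type and less RNA per cell cannot be told apart.

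**Figure D1:**
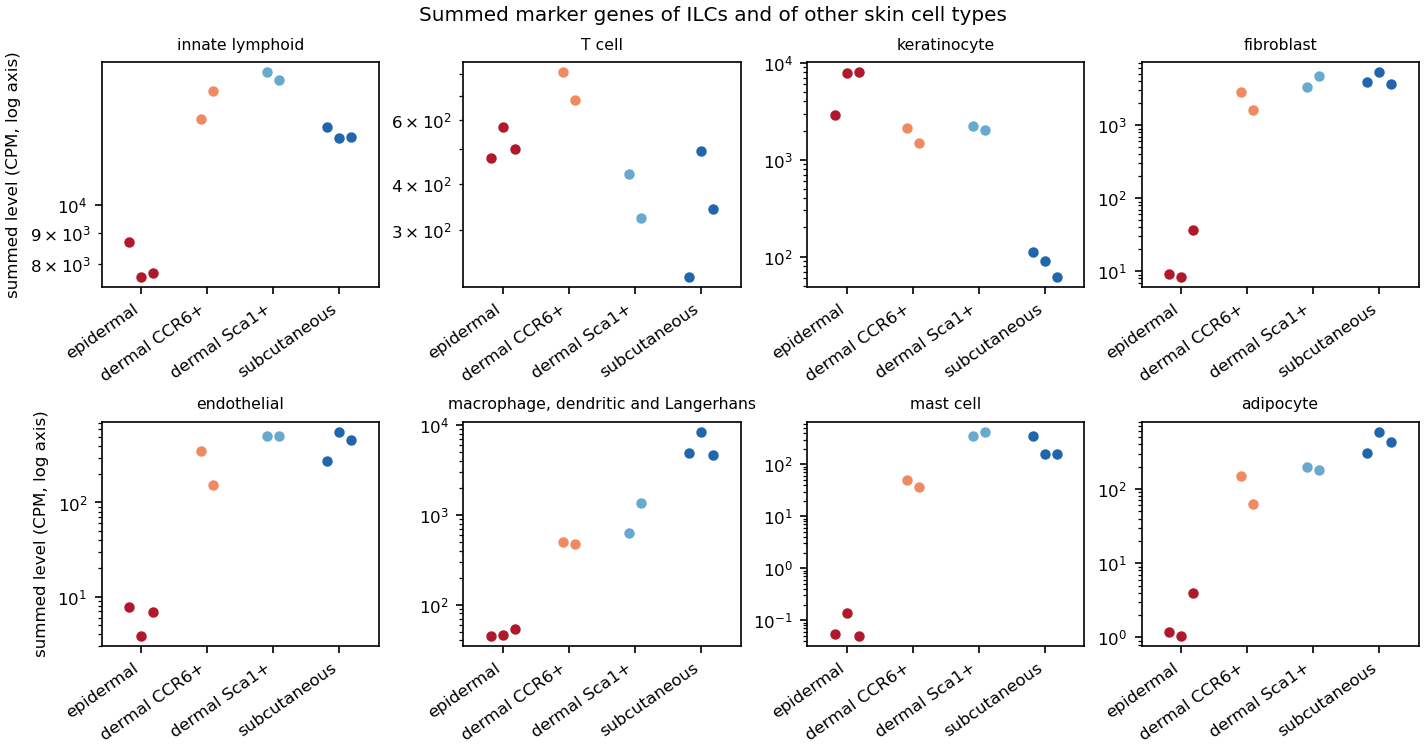
Summed CPM (log axis) of the marker genes of ILCs and of 7 other cell types, 1 point per library in the 4 ILC groups. Fibroblast, endothelial, macrophage, mast cell and adipocyte sums are lowest in the 3 epidermal libraries, and the keratinocyte sum is lowest in the 3 subcutaneous libraries, at 61.9 to 111.7 CPM.

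Epidermal replicate 1 stood apart within its group. It had the highest level of 8 of the 9 members among the 3 epidermal libraries, all but Pmepa1, and the lowest keratinocyte sum (2884 CPM against 7898 and 7975). Epidermal replicate 2 had the lowest level of all 9. How many of all genes showed the same orders was not counted, so they are not shown to be particular to the members. Leaving out replicate 1 moved several epidermal differences, which are given beside the genes concerned.

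Across the 6 pairwise comparisons of the 4 groups, 11 of the 54 differences of members passed the test (an edgeR quasi-likelihood fit, with p adjusted by Benjamini-Hochberg over all 16208 genes and a threshold of 0.05, which lies behind each edgeR adjusted p given here). These comparisons share libraries, so they are not independent of each other. The members were chosen with earlier results of these data known, so their counts describe the libraries and do not test the pathway. Pmepa1 accounted for 5 of the 11, Tgfbr1 and Tgfb1 for 2 each, and Smad3 and Smad7 for 1 each. Tgfbr2, Tgfbr3, Ski and Skil were not called in any comparison. Of the 11 calls, 5 were kept in all 10 fits that left out 1 library and in the other 8 alternative analyses. These were Tgfbr1, Smad3 and Smad7 between epidermal and subcutaneous ILCs, and Pmepa1 between dermal Sca1+ and both epidermal and dermal CCR6+ ILCs.

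Epidermal against subcutaneous ILCs had the most member calls, with 3 higher (Tgfbr1, Smad7 and Pmepa1) and 1 lower (Smad3) of 9. Of all genes, 20.2% were called in this comparison, 6.87% higher and 13.3% lower in epidermal ILCs. The median log2 fold change was 0.48 over the members and -0.02 over all genes. Epidermal against dermal Sca1+ ILCs gave 2 members higher (Tgfbr1 and Pmepa1) and 1 lower (Tgfb1), beside 11.4% of all genes, 2.75% higher and 8.66% lower. Epidermal against dermal CCR6+ ILCs gave 0 higher and 1 lower (Tgfb1), beside 6.18% of all genes, 0.987% higher and 5.19% lower. Dermal CCR6+ against subcutaneous ILCs gave 1 higher (Pmepa1) and 0 lower, beside 7.46% of all genes, 3.75% higher and 3.71% lower. Dermal Sca1+ against subcutaneous ILCs gave 0 higher and 1 lower (Pmepa1), beside 2.2% of all genes, 1.21% higher and 0.993% lower. Within the dermis, CCR6+ against Sca1+ ILCs gave 1 higher (Pmepa1) and 0 lower, beside 0.642% of all genes, 0.296% higher and 0.346% lower.

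In that last comparison, 7 of the 9 members had both CCR6+ libraries above both Sca1+ libraries, a pattern that 19.3% of all genes showed, and Smad3 had both below, as did 20.1% of all genes. Apart from Pmepa1, those 7 were Tgfbr1, Tgfbr2, Tgfbr3, Smad7, Ski and Skil, none of which passed the test there (edgeR adjusted p of 0.290 or more).

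**Figure D2:**
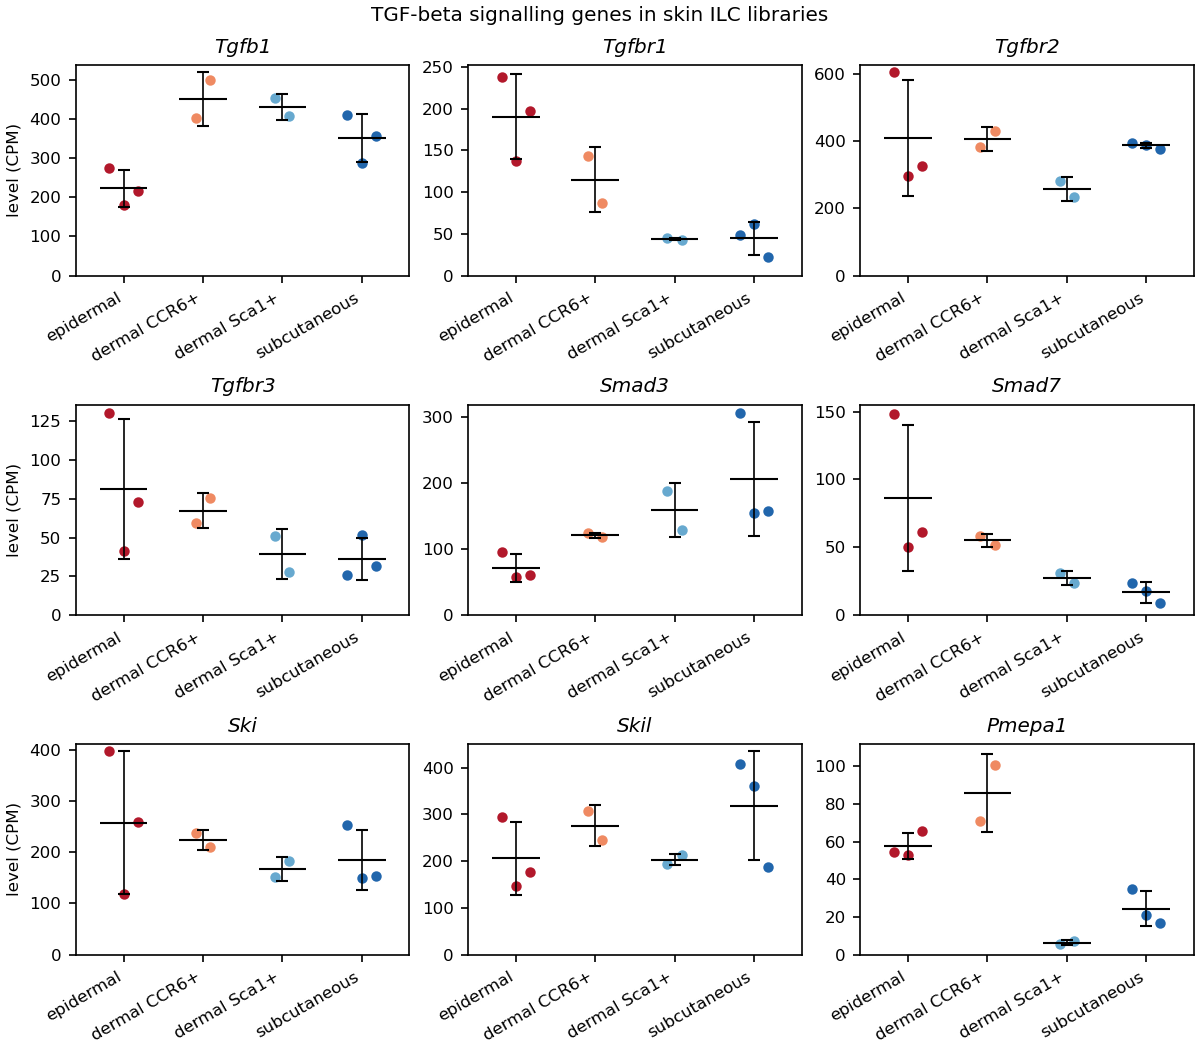
Level in CPM of each of the 9 genes, 1 point per library, with the group mean (horizontal line) and SD (bars) for 3 epidermal, 2 dermal CCR6+, 2 dermal Sca1+ and 3 subcutaneous libraries. Tgfbr1 and Smad7 have their highest means in the epidermal libraries, Smad3 in the subcutaneous libraries, and Pmepa1 is at 5.40 and 7.39 CPM in the dermal Sca1+ libraries, below every other library.

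Compared per length, as TPM (transcript abundance corrected for length), Tgfb1 was the most abundant member, with group means of 161.3 to 288 TPM. Tgfbr2 followed at 66.4 to 119.6 TPM, then Skil at 50.8 to 79.2 and Ski at 41.2 to 70.3. Smad3 (19.6 to 50.7), Tgfbr1 (9.90 to 50.4), Smad7 (6.23 to 42.0), Pmepa1 (1.96 to 34.6) and Tgfbr3 (7.39 to 20.8) were lower. The ratio of the highest to the lowest group mean in CPM was 13.4 for Pmepa1, 5.16 for Smad7 and 4.33 for Tgfbr1. It was 1.54 for Ski, 1.57 for Skil and 1.59 for Tgfbr2.

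Tgfb1, the gene of the ligand (ENSMUSG00000002603.15, chromosome 7, 25687002 to 25705077, mm10), was lowest in epidermal ILCs. Its levels were 273.7, 180.6 and 214.7 CPM in epidermal replicates 1 to 3, and 401.5 and 499.4 CPM in the dermal CCR6+ libraries. They were 454.1 and 406.5 CPM in the dermal Sca1+ libraries and 409.8, 286.6 and 355.2 CPM in the subcutaneous libraries. All 3 epidermal libraries lay below the other 7, among which the groups overlapped. Tgfb1 was lower in epidermal than in dermal CCR6+ ILCs (log2 fold change -1.01 ± 0.229 SE, edgeR adjusted p = 0.0256) and than in dermal Sca1+ ILCs (-0.95 ± 0.2295, edgeR adjusted p = 0.0238). Against subcutaneous ILCs the difference missed the threshold (-0.65 ± 0.209, edgeR adjusted p = 0.0512), and it passed in 7 alternatives, among them without epidermal replicate 1 (-0.81, edgeR adjusted p = 0.0271) and without subcutaneous replicate 2 (-0.78, edgeR adjusted p = 0.0448). The 2 calls were lost in limma on log2(TPM + 1) (adjusted p = 0.104 and 0.077) and without epidermal replicates 2 or 3 (edgeR adjusted p = 0.0721 to 0.0801). The call against dermal CCR6+ ILCs was also lost without dermal CCR6+ replicate 1 or 2 (edgeR adjusted p = 0.0571 and 0.186) and in a fit of these groups alone (0.0667), and the call against dermal Sca1+ ILCs without dermal Sca1+ replicate 1 or 2 (0.142 and 0.0877). Fibroblast, macrophage and endothelial transcripts were also lowest in the epidermal libraries, and their part in the Tgfb1 result was not tested.

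Tgfbr1, the gene of the type I receptor kinase (ENSMUSG00000007613.15, chromosome 4, 47353222 to 47414931, mm10), was higher in epidermal than in dermal Sca1+ and subcutaneous ILCs. It was at 237.6, 137.2 and 196.5 CPM in epidermal replicates 1 to 3 and at 142.7 and 87.3 CPM in the dermal CCR6+ libraries. The dermal Sca1+ libraries had 45.1 and 42.9 CPM, and the subcutaneous libraries 48.6, 62.3 and 22.3 CPM. Every epidermal and dermal CCR6+ library exceeded every dermal Sca1+ and subcutaneous library, while epidermal and dermal CCR6+ libraries overlapped with each other, as did dermal Sca1+ and subcutaneous libraries. Epidermal levels exceeded subcutaneous ones with a log2 fold change of 2.10 ± 0.373 (SE, edgeR adjusted p = 0.00284), or 1.94 without epidermal replicate 1 (edgeR adjusted p = 0.00751). They exceeded dermal Sca1+ levels by 2.11 ± 0.435 (edgeR adjusted p = 0.0107). Leaving out dermal Sca1+ replicate 1 or 2 ended this call (edgeR adjusted p = 0.0717 and 0.0688). Dermal CCR6+ ILCs did not pass the test against dermal Sca1+ (1.39 ± 0.448, edgeR adjusted p = 0.290) or subcutaneous ILCs (1.37 ± 0.396, edgeR adjusted p = 0.0657). Without a filter on low counts both passed (edgeR adjusted p = 0.00206 and 7.93e-05), and the second also passed with at least 5 CPM in 2 libraries (edgeR adjusted p = 0.0453) and in DESeq2 (adjusted p = 0.0131). The fit without a filter called more genes of all within the dermis. There the log2 fold change of Tgfbr1 was nearly unchanged, with a smaller SE (1.40 ± 0.332). Keratinocyte sums were also highest in the epidermal libraries, at 2884, 7898 and 7975 CPM in replicates 1 to 3. They were 2126 and 1477 CPM in the dermal CCR6+ libraries and 2215 and 2007 CPM in the dermal Sca1+ libraries. T cell marker sums were 473.7 to 573.6 CPM in epidermal and 681.1 to 810 CPM in dermal CCR6+ libraries. They were 323.1 to 427.4 CPM in dermal Sca1+ and 223.5 to 494.7 CPM in subcutaneous libraries. The part of keratinocytes or T cells in the Tgfbr1 result was not tested.

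Tgfbr2, the gene of the ligand-binding type II receptor (ENSMUSG00000032440.12, chromosome 9, 116084293 to 116175360, mm10), had no called difference. Epidermal replicate 1 had 605.8 CPM, while replicates 2 and 3 had 294.9 and 325.9. The dermal CCR6+ libraries had 381.2 and 430.2 CPM, the dermal Sca1+ libraries 281.7 and 232.7, and the subcutaneous libraries 393.3, 389.4 and 376.9. Both dermal Sca1+ libraries were below all others, and dermal Sca1+ against subcutaneous ILCs gave a log2 fold change of -0.59 ± 0.291 (SE). The edgeR adjusted p of dermal Sca1+ against epidermal, dermal CCR6+ and subcutaneous ILCs was 0.1798, 0.476 and 0.382. Epidermal and subcutaneous ILCs differed by 0.08 ± 0.256 (log2, SE, edgeR adjusted p = 0.874), a value that changed sign to -0.30 without epidermal replicate 1.

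Tgfbr3, the gene of betaglycan, a co-receptor that presents the ligand (ENSMUSG00000029287.14, chromosome 5, 107106570 to 107289629, mm10), had lower mean TPM than Tgfbr1 in all groups but dermal Sca1+ ILCs, where it was at 10.7 against 9.90 TPM. Its epidermal levels were 130.4, 41.2 and 72.9 CPM and its dermal CCR6+ levels 59.4 and 75.3 CPM. Dermal Sca1+ libraries had 50.8 and 27.8 CPM, and subcutaneous libraries 25.6, 51.7 and 31.5 CPM. The epidermal range covered the dermal CCR6+ range and overlapped with the other groups, and the largest difference, epidermal against subcutaneous, was 1.17 ± 0.431 (log2, SE, edgeR adjusted p = 0.0838). It passed the threshold in 4 alternatives, which were the fit without epidermal replicate 2 (1.49, edgeR adjusted p = 0.0288), no filter on low counts (1.17, edgeR adjusted p = 0.00135), DESeq2 (1.13, adjusted p = 0.0415) and limma on log2(TPM + 1) (1.25, adjusted p = 0.0354). Without epidermal replicate 1 it was 0.68 (edgeR adjusted p = 0.260), and against dermal CCR6+ ILCs the sign changed from 0.27 to -0.23. Tgfbr3 overlaps with 4 annotated pseudogenes or unclassified transcripts, of which the most counted had a mean of 14.7 counts per library against 917.8 for Tgfbr3.

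Since the type I and II receptors act together, the ratio of their TPM was taken in each library, a choice made after the levels were seen. Tgfbr1 stood at 0.371, 0.426 and 0.531 of Tgfbr2 in epidermal replicates 1 to 3 and at 0.332 and 0.194 in the dermal CCR6+ libraries. The ratio was 0.141 and 0.158 in the dermal Sca1+ libraries, and 0.113, 0.139 and 0.0526 in the subcutaneous libraries. The ratios of the 4 groups did not overlap, in the order epidermal, dermal CCR6+, dermal Sca1+ and subcutaneous. Epidermal and subcutaneous ratios differed by 2.22 on the log2 scale (two-sided exact permutation p = 0.1, the smallest that 3 against 3 libraries can give, so the test could not pass 0.05).

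**Figure D3:**
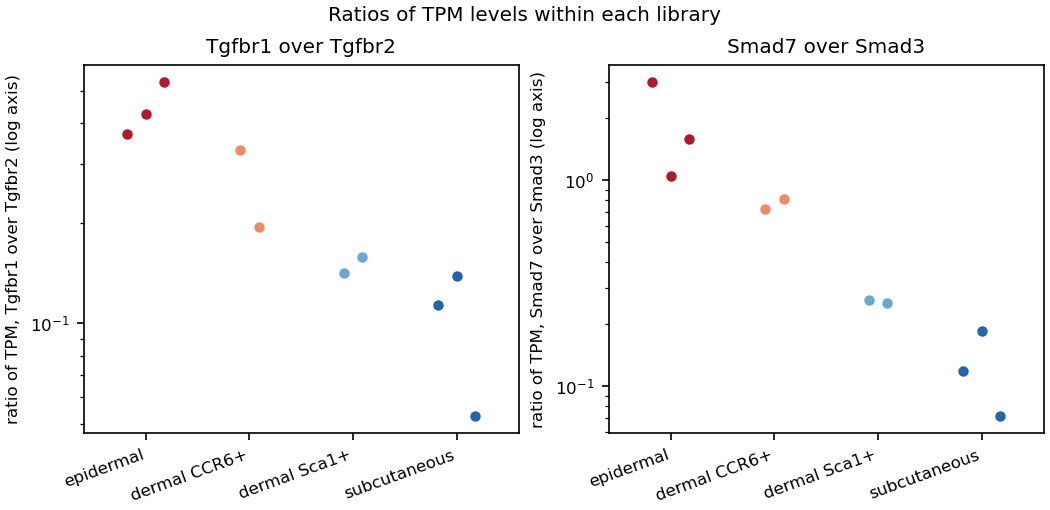
Ratio of TPM within each library (log axis), 1 point per library, for Tgfbr1 over Tgfbr2 (left) and Smad7 over Smad3 (right) in the 4 groups. Both ratios fall from epidermal to subcutaneous libraries, from 0.371 to 0.531 down to 0.0526 to 0.139 on the left and from 1.04 to 3.002 down to 0.0715 to 0.185 on the right.

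Smad3, the gene of the transducer that carries the signal to the nucleus (ENSMUSG00000032402.12, chromosome 9, 63646767 to 63757994, mm10), was lower in epidermal than in subcutaneous ILCs. Its levels were 95.0, 57.8 and 60.9 CPM in the epidermal libraries and 123.4 and 117.4 CPM in the dermal CCR6+ libraries. They were 187.2 and 129.3 CPM in the dermal Sca1+ libraries and 305.3, 154.3 and 158.1 CPM in the subcutaneous libraries. Group means increased in that order, and only the dermal Sca1+ and subcutaneous ranges overlapped. The log2 fold change of epidermal against subcutaneous ILCs was -1.53 ± 0.314 (SE, edgeR adjusted p = 0.00644), and it was between -1.78 and -1.13 with any 1 library left out. Epidermal against dermal Sca1+ ILCs missed the threshold (-1.15 ± 0.339, edgeR adjusted p = 0.0545) but passed it in 8 alternatives, among them without epidermal replicate 1 (-1.39, edgeR adjusted p = 0.0335), without subcutaneous replicate 1 (-1.15, edgeR adjusted p = 0.0230) and in DESeq2 (adjusted p = 0.00838). No pair of neighbouring groups was called (edgeR adjusted p of 0.246 for epidermal against dermal CCR6+, 0.792 within the dermis and 0.697 for dermal Sca1+ against subcutaneous ILCs). Fibroblast, macrophage and endothelial sums were lowest in the epidermal libraries too, and their part in the Smad3 result was not tested.

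Smad7, the gene of the inhibitory SMAD that blocks the type I receptor (ENSMUSG00000025880.11, chromosome 18, 75367529 to 75395935, mm10), was called higher in epidermal ILCs against subcutaneous ILCs. Epidermal levels were 148.1, 49.9 and 61.3 CPM, and dermal CCR6+ levels 58.6 and 51.6 CPM. Dermal Sca1+ libraries had 31.2 and 23.5 CPM, and subcutaneous libraries 23.7, 17.7 and 8.80 CPM. Every epidermal and dermal CCR6+ library exceeded every dermal Sca1+ and subcutaneous library, as for Tgfbr1. The part of keratinocytes or T cells in the Smad7 result was not tested. Epidermal exceeded subcutaneous levels by 2.37 ± 0.467 (log2, SE, edgeR adjusted p = 0.00525), which was 1.75 without epidermal replicate 1 (edgeR adjusted p = 0.0113). Dermal CCR6+ ILCs missed the threshold against subcutaneous ILCs (1.72 ± 0.493, edgeR adjusted p = 0.0646), as did epidermal against dermal Sca1+ ILCs (1.66 ± 0.527, edgeR adjusted p = 0.0708). The first of these passed in 7 alternatives, among them without epidermal replicate 1 or 2 (edgeR adjusted p = 0.0229 and 0.0465), and the second was 1.05 without epidermal replicate 1 (edgeR adjusted p = 0.155) and passed without epidermal replicate 2 (1.94, edgeR adjusted p = 0.0478). In DESeq2 both passed (adjusted p = 0.0116 and 0.0112). Epidermal against dermal CCR6+ ILCs gave 0.65 ± 0.504 (edgeR adjusted p = 0.551), and without epidermal replicate 1 it was 0.0212 (edgeR adjusted p = 1).

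Smad7 and Smad3 were thus called in opposite directions between epidermal and subcutaneous ILCs. Per library, Smad7 was at 3.002, 1.04 and 1.59 times the TPM of Smad3 in the epidermal libraries, at 0.728 and 0.807 in dermal CCR6+, at 0.261 and 0.2545 in dermal Sca1+, and at 0.119, 0.185 and 0.0715 in subcutaneous libraries. The 4 groups did not overlap. This pair was also chosen after its levels were seen. Epidermal and subcutaneous ratios differed by 3.88 on the log2 scale. The TPM of these libraries did not overlap for either gene, in opposite directions. The exact permutation p of 0.1, the smallest possible, was therefore fixed beforehand and tests nothing.

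Ski (ENSMUSG00000029050.15, chromosome 4, 155154075 to 155222592, mm10) and Skil (ENSMUSG00000027660.16, chromosome 3, 31095058 to 31122577, mm10) encode related co-repressors that bind SMAD complexes. Neither was called. Ski ranged from 118.8 to 397.3 CPM among the epidermal libraries, wider than its range over the other 7 libraries (150 to 253.2 CPM). Skil ranged from 146.3 to 294.6 CPM in epidermal and from 187.1 to 408.3 CPM in subcutaneous libraries, with 306.7 and 245.4 CPM in dermal CCR6+ and 194.3 and 212.2 CPM in dermal Sca1+ libraries. The largest difference of Ski was epidermal against dermal Sca1+ (log2 0.62 ± 0.427 SE, edgeR adjusted p = 0.406), which was 0.20 without epidermal replicate 1 (edgeR adjusted p = 0.819). That of Skil was dermal Sca1+ against subcutaneous (log2 -0.65 ± 0.366 SE, edgeR adjusted p = 0.454).

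Pmepa1, which encodes a membrane protein that sequesters SMAD2 and SMAD3 (ENSMUSG00000038400.15, chromosome 2, 173224458 to 173276533, mm10), had the largest differences. It was at 54.6, 53.2 and 65.5 CPM in the epidermal libraries and at 71.2 and 100.6 CPM in the dermal CCR6+ libraries. The dermal Sca1+ libraries had 5.40 and 7.39 CPM, and the subcutaneous libraries 34.9, 21.2 and 16.9 CPM. No pair of groups overlapped, and dermal Sca1+ rather than subcutaneous ILCs had the lowest levels. Within the dermis, CCR6+ exceeded Sca1+ ILCs by 3.75 ± 0.414 on the log2 scale (SE, edgeR adjusted p = 0.00279), which is 13.4-fold. It was the only member among the 104 genes called there. The call was kept without any 1 library, with an edgeR adjusted p of up to 0.0484.

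Pmepa1 was called in 4 of the other 5 comparisons. It was higher in epidermal than in dermal Sca1+ ILCs (log2 3.18 ± 0.3895 SE, edgeR adjusted p = 0.000514), and lower in dermal Sca1+ than in subcutaneous ILCs (log2 -1.93 ± 0.368 SE, edgeR adjusted p = 0.0251). It was higher in dermal CCR6+ (1.82 ± 0.332, edgeR adjusted p = 0.00886) and in epidermal ILCs (1.25 ± 0.305, edgeR adjusted p = 0.0159) than in subcutaneous ILCs. Epidermal and dermal CCR6+ ILCs were not told apart by the test (-0.57 ± 0.331, edgeR adjusted p = 0.382). The call of Sca1+ against subcutaneous ILCs was lost without dermal Sca1+ replicate 1 or 2 or subcutaneous replicate 1 (edgeR adjusted p = 0.193, 0.0815 and 0.0534), in a fit of these groups alone (0.0843) and in limma on log2(TPM + 1) (adjusted p = 0.0902). That of dermal CCR6+ against subcutaneous ILCs was lost without dermal CCR6+ replicate 2 (edgeR adjusted p = 0.0978), and that of epidermal against subcutaneous ILCs without epidermal replicate 3, subcutaneous replicate 2 or subcutaneous replicate 3 (0.0577, 0.0611 and 0.0558).

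Beside the dermal difference in Pmepa1, the fibroblast sum was lower in CCR6+ (1626 and 2866 CPM) than in Sca1+ libraries (3382 and 4657 CPM), and the endothelial, macrophage and mast cell sums were lower too. The sum of the 9 T cell markers was higher in CCR6+ libraries (681.1 and 810 CPM against 323.1 and 427.4). Of these 9, 0 were called within the dermis, and 2 had both CCR6+ libraries above both Sca1+ libraries. Of the fibroblast, endothelial and macrophage markers 0 were called there, and of the 7 mast cell markers 1 was, lower in CCR6+ ILCs, beside 0.642% of all genes. The part of these cells in the Pmepa1 result was not tested.

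**Figure D4:**
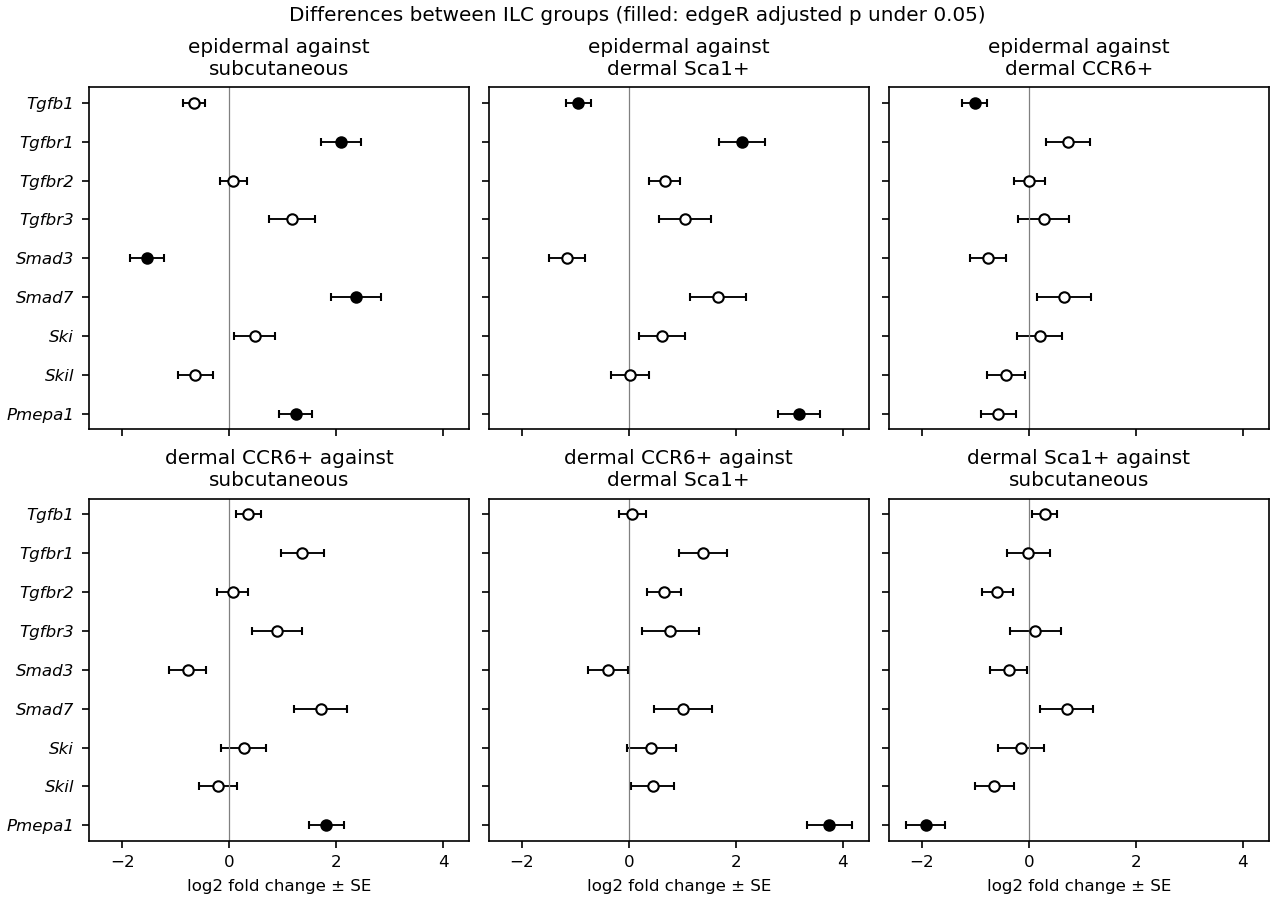
Log2 fold change with SE (horizontal axis) of the 9 genes in the 6 comparisons of groups, positive where the first group named is higher. Filled points passed an edgeR adjusted p of 0.05, namely 11 of 54, and Pmepa1 within the dermis, at 3.75, lies farthest from 0.

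Other genes of the pathway were read from lists of ligands and their activators, receptors, and SMADs with their regulators. These lists, and that of responsive genes below, were chosen with earlier results of these data known. Their counts beside the shares of all genes are descriptions. Of 20 genes of ligands, latency and activation, 11 were lower and 1 was higher when epidermal were set against subcutaneous ILCs, with a median log2 fold change of -2.20, beside 13.3% of all genes lower and 6.87% higher. The lower genes included Furin, a protease that matures the precursor (871.1 against 2256 CPM, log2 -1.37), Dcn, a proteoglycan that binds TGF-beta and a fibroblast marker (1.97 against 595.2 CPM), and Itgav, the integrin chain that activates the latent complex (92.6 against 302.1 CPM, log2 -1.71). In all, 6 of the 20 were lower in epidermal than in dermal CCR6+ ILCs and 7 were lower than in dermal Sca1+ ILCs, with 0 higher in both, beside 5.19% and 8.66% of all genes lower. Fibroblast, macrophage and endothelial sums were also lowest in the epidermal libraries, and their part in these counts was not tested. Itgav was at 257.3 and 201.4 CPM in the dermal groups. Nrros, which holds latent TGF-beta on myeloid cells, was at 44.4 CPM in epidermal, 89.0 in dermal CCR6+, 165.3 in dermal Sca1+ and 200.7 in subcutaneous ILCs, an order it shared with the macrophage sum. The part of macrophages in the Nrros values was not tested. Nrros was lower in dermal CCR6+ than in subcutaneous ILCs (log2 -1.17, edgeR adjusted p = 0.00957), as was the matrix protein gene Thbs1 (20.9 against 169.5 CPM). Bmp2, a ligand of the related BMP branch, was higher in dermal CCR6+ (mean 216.5 CPM) and dermal Sca1+ (mean 279 CPM) than in subcutaneous libraries (mean 69.0 CPM, edgeR adjusted p = 0.0201 and 0.0184).

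Of 11 other receptor genes, 10 were tested. Between epidermal and subcutaneous ILCs, 4 were lower and 1 was higher (13.3% and 6.87% of all genes), with a median log2 fold change of -0.23. Bambi, a pseudoreceptor that blocks signalling, was at 24.1, 12.0 and 10.2 CPM in the epidermal libraries, 43.6 and 51.6 in dermal CCR6+, 99.6 and 78.0 in dermal Sca1+, and 97.6, 86.5 and 127.3 in subcutaneous libraries. It was lower in epidermal ILCs than in each of the other groups (log2 -1.62 against dermal CCR6+, -2.52 against dermal Sca1+ and -2.75 against subcutaneous, edgeR adjusted p = 0.0219, 0.00124 and 0.000308). Eng, an endothelial and macrophage co-receptor, was at 0.343 CPM in epidermal against 52.1 CPM in subcutaneous ILCs, and Acvrl1 at 6.05 against 21.6 CPM. The activin receptor gene Acvr1b was higher in epidermal ILCs (16.0 against 3.998 CPM, edgeR adjusted p = 0.0259), and Acvr2a averaged 224.3 CPM in dermal Sca1+ and 83.7 CPM in subcutaneous libraries, also a call (edgeR adjusted p = 0.0428). Within the dermis 0 of the 10 were called, with 0.642% of all genes called there.

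Of 23 genes of SMADs and their regulators, 21 were tested, and Ldlrad4, Tgif1, Tgif2 and Nedd4l made up all calls in the 6 comparisons. Ldlrad4, a relative of Pmepa1 that also sequesters SMAD2 and SMAD3, was the only gene of that list called within the dermis. It was at 149.4, 104.2 and 116 CPM in the epidermal libraries and 115 and 164.5 in the dermal CCR6+ libraries. It was at 33.5 and 25.8 CPM in the dermal Sca1+ libraries and 20.6, 24.7 and 19.1 in the subcutaneous libraries, so the epidermal and dermal CCR6+ libraries lay above all others. Ldlrad4 was higher in dermal CCR6+ than in dermal Sca1+ ILCs (log2 2.24, edgeR adjusted p = 0.00822) and than in subcutaneous ILCs (2.70, edgeR adjusted p = 0.000297). Epidermal ILCs likewise exceeded dermal Sca1+ (2.05, edgeR adjusted p = 0.00092) and subcutaneous ILCs (2.52, edgeR adjusted p = 6.61e-05). Unlike Pmepa1, its dermal Sca1+ levels were not below the subcutaneous ones.

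The nuclear co-repressor genes Tgif1 and Tgif2 were lower in epidermal ILCs than in each other group. Tgif1 was at 83.8 CPM in epidermal, 349 in dermal CCR6+, 286.4 in dermal Sca1+ and 235.3 in subcutaneous ILCs, with edgeR adjusted p of 0.00101 to 0.00158. The Tgif2 means in these groups were 4.70, 44.3, 67.7 and 64.4 CPM (edgeR adjusted p of 0.000358 to 0.00316). Nedd4l, a ubiquitin ligase of activated SMADs, was at 5.15 CPM in epidermal and 7.89 in dermal CCR6+ ILCs against 42.5 in dermal Sca1+ and 45.6 in subcutaneous ILCs. For Nedd4l, 3 comparisons were called, epidermal against dermal Sca1+, epidermal against subcutaneous and dermal CCR6+ against subcutaneous (edgeR adjusted p = 0.00344, 0.00127 and 0.0209).

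**Figure D5:**
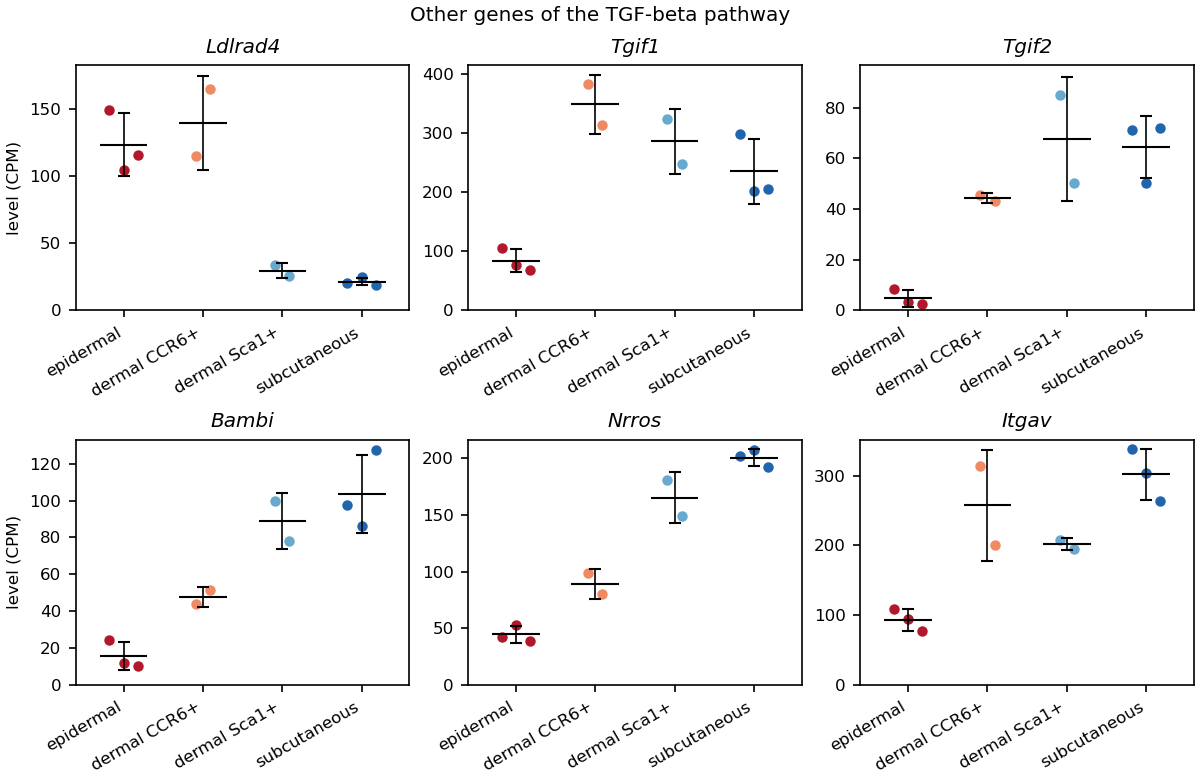
Level in CPM of 6 other pathway genes, 1 point per library with the group mean (line) and SD (bars) in the 4 ILC groups. Ldlrad4 is above 100 CPM in every epidermal and dermal CCR6+ library and below 34 CPM elsewhere, and the other 5 genes are lowest in the epidermal libraries.

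Of 20 genes known to respond to TGF-beta in lymphocytes or other cells, 19 were tested. Between epidermal and subcutaneous ILCs, 4 were higher and 7 lower (6.87% and 13.3% of all genes), with a median log2 fold change of -0.98. Nt5e, which encodes the ectoenzyme CD73, was higher in epidermal (266.6 CPM) and dermal CCR6+ (222.1 CPM) than in subcutaneous libraries (mean 21.3 CPM, edgeR adjusted p = 0.000189 and 0.00137), and higher in epidermal than in dermal Sca1+ ILCs (69.1 CPM, edgeR adjusted p = 0.0200). Runx3, a transcription factor of resident lymphocytes, averaged 101.8 CPM in epidermal and 57.7 CPM in subcutaneous ILCs, a called difference (edgeR adjusted p = 0.0230). Klf2, a transcription factor of circulating lymphocytes, had group means of 12.7 CPM in epidermal, 65.0 in dermal CCR6+, 81.6 in dermal Sca1+ and 283.7 in subcutaneous ILCs. Every pair of groups passed for Klf2 except the dermal populations. The cell cycle inhibitor gene Cdkn1a was lower in epidermal ILCs (204.1 CPM) than in dermal CCR6+ (794.8), dermal Sca1+ (789.5) and subcutaneous ILCs (605.1). Ccn2, a matricellular gene also made by fibroblasts, was higher in dermal CCR6+ (34.2 CPM) and dermal Sca1+ (55.6 CPM) than in subcutaneous libraries (mean 6.72 CPM, edgeR adjusted p = 0.0201 and 0.0141). The part of fibroblasts in the Ccn2 values was not tested. Itgae was at 1611 CPM in epidermal and 1300 in dermal CCR6+ against 12.2 in subcutaneous ILCs (edgeR adjusted p = 0.00371 and 0.0125). It was not called higher in either of these groups than in dermal Sca1+ ILCs, nor called between dermal Sca1+ and subcutaneous ILCs. T cell marker sums were 473.7 to 573.6 CPM in epidermal, 681.1 to 810 in dermal CCR6+, 323.1 to 427.4 in dermal Sca1+ and 223.5 to 494.7 in subcutaneous libraries. The part of T cells in the Itgae values was not tested. The egress receptor gene S1pr1 was lower in epidermal ILCs (6.12 CPM) than in dermal CCR6+ (77.7), dermal Sca1+ (155.6) and subcutaneous ILCs (101.4). Of the inhibitors of DNA binding, Id3 was lower in epidermal (42.9 CPM) than in dermal CCR6+ (94.4) and dermal Sca1+ ILCs (104.9), and Id1 was higher in dermal Sca1+ (22.1 CPM) than in subcutaneous libraries (mean 2.91 CPM, edgeR adjusted p = 0.0443). Of the 19, 0 were called within the dermis, where 0.642% of all genes were.

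Profiles were compared by Pearson's r of log2 CPM over the 10 libraries, which fall into 4 groups. Predicted or unnamed genes, ribosomal and mitochondrially encoded genes and antigen receptor segments were set aside. For each member called in at least 1 comparison, the remaining genes with the most similar profile were ranked. For Tgfb1 these were Ormdl3 (0.985), Plxna1 (0.972) and Fbxo34 (0.968), and for Tgfbr1 they were Siah1a (0.958), Ggps1 (0.949) and Grin2d (0.947). For Smad3 they were Fbxw11 (0.982), Hs6st1 (0.964) and Mapkapk2 (0.963), for Smad7 Rin3 (0.970), Sdccag8 (0.964) and Ptger4 (0.951), and for Pmepa1 Zfpl1 (0.963), Mgat5 (0.949) and Ldhd (0.941). Among the members themselves, Tgfbr1 and Smad7 were most alike (0.925) and Tgfbr1 and Smad3 most opposed (-0.70). These values describe the libraries and carry no test.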

How the data were processed

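RNA from 10 samples of sorted skin ILCs was prepared with an ultra-low-input RNA kit and Nextera XT, per the labels' protocols. Trimmomatic, STAR, RSEM and the mm10 build are named, per the submitters' processing notes. Their versions and settings, the handling of strand and the annotation are not given in sources used here. The deposited expected counts are RSEM's estimates of reads per gene, and the deposited TPM values are RSEM's length-corrected abundances, per the file headers.

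Groups follow the sample titles, since for replicate 2 of both dermal sorts the cell type label lacks the marker. Gene IDs were looked up, ignoring versions, in GENCODE M21 (on GRCm38, as mm10 is), which gave a symbol for 47224 of 47643. Expected counts were rounded, genes kept by filterByExpr (count minimum 10), and normalised by TMM. In all 10 libraries together, a quasi-likelihood model of the 4 groups was fitted in edgeR 4.0.16 (R 4.3.3). The SE is the absolute log2 fold change over the square root of F. Levels in CPM use TMM library sizes. On data simulated with the same common spread for every gene, the fit called only a minority of the changed genes. A missed threshold therefore does not show that groups are alike. Fitted fold changes were checked only as a median over the genes raised most. Real genes spread more or less than this, so the share called does not carry over to single members. Each library was counted once. Replicates differed by more than sampling noise (chi-square over its degrees of freedom 40.9 or more), which does not show that they came from different animals. The alternatives used RLE size factors, DESeq2 1.42.0, limma 3.58.1 on log2(TPM + 1) for genes with a mean of at least 1 TPM, other filters, only the groups compared, replicate blocks, and leaving out each library.

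Of each pathway list and comparison, up to 3 called genes per direction whose libraries did not overlap were named, by highest mean CPM. For each called member the 3 most correlated genes were named, leaving out predicted or unnamed, ribosomal, mitochondrially encoded and antigen receptor genes. The members and lists were chosen with earlier results of these data known. Lists were described by counts and medians, without set tests.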

Additional observations from a re-analysis of the deposited data

How the results depend on the processing

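No called value of a member changed sign under any alternative, and 5 of the 11 calls were kept in all of them. Precision is limited by 2 or 3 libraries per group and a common coefficient of biological variation of 0.620. Leaving out 1 dermal library leaves its group with 1 sample, which is then assumed to vary like the other groups. The causes of the changes below were not tested.

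The number of members called within the dermis was 2 without a filter on low counts. Between dermal CCR6+ and subcutaneous ILCs it was 3 in DESeq2, without a filter and with at least 5 CPM in 2 libraries. Between dermal Sca1+ and subcutaneous ILCs it was 0 in limma and with only the groups compared, as it was between epidermal and dermal CCR6+ ILCs. Between epidermal and dermal Sca1+ ILCs it was 5 in DESeq2 and 6 without a filter. Leaving out 1 library gave 0 to 2 members for dermal CCR6+ against subcutaneous, 0 to 1 for epidermal against dermal CCR6+, 0 to 1 for dermal Sca1+ against subcutaneous and 1 to 4 for epidermal against dermal Sca1+.

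Over all genes, DESeq2 and no filter called 561 and 647 within the dermis, 2345 and 2292 for dermal CCR6+ against subcutaneous, 1193 and 1328 for dermal Sca1+ against subcutaneous, 2001 and 2028 for epidermal against dermal CCR6+, and 2967 and 2918 for epidermal against dermal Sca1+ ILCs. Limma called 1818 for dermal CCR6+ and 719 for dermal Sca1+ against subcutaneous ILCs. With only the groups compared, calls were 47 within the dermis, 560 for dermal Sca1+ against subcutaneous and 618 for epidermal against dermal CCR6+ ILCs. Leaving out 1 library gave 35 to 155 within the dermis, 435 to 1372 for dermal CCR6+ and 157 to 420 for dermal Sca1+ against subcutaneous, and 1192 to 1865 for epidermal against dermal Sca1+ ILCs. For epidermal against subcutaneous ILCs, edgeR called 1113 genes higher and 2155 lower, and limma 1960 and 1949.

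The labels do not say whether replicate numbers in the titles mark a shared animal or day, and this was not settled here. In the dermal groups, with 2 libraries each, the deviations of a gene are equal and opposite. Same-numbered and other pairs there give mirrored values. Correlations of deviations between same-numbered epidermal and subcutaneous libraries were 0.114, 0.0174 and -0.0219, and epidermal replicate 2 correlated best with subcutaneous replicate 3 (0.0877). With a replicate block by title number, members called were 0 for epidermal against dermal CCR6+, 0 for dermal Sca1+ against subcutaneous, 5 for epidermal against dermal Sca1+ and 2 for dermal CCR6+ against subcutaneous ILCs, and all genes called were 64 within the dermis and 203 for dermal Sca1+ against subcutaneous. With a replicate block by runs of numbers in the deposited names, members called were 2 for epidermal against dermal CCR6+, 0 for dermal Sca1+ against subcutaneous and 2 for dermal CCR6+ against subcutaneous ILCs. The Pmepa1 call of dermal Sca1+ against subcutaneous was lost under both blocks (edgeR adjusted p = 0.0736 by title and 0.0587 by runs), and the Tgfb1 call of epidermal against dermal CCR6+ under the title block (0.0551). Smad3 in the latter comparison was called under the block by runs (-1.07, edgeR adjusted p = 0.0183). Log2 values that changed sign, none of them called, were -0.0306 for Tgfbr3 in dermal Sca1+ against subcutaneous under the title block, and under the block by runs -0.22 for Tgfbr2 and -0.25 for Ski in epidermal against dermal CCR6+, 0.18 for Tgfbr1 and 0.20 for Ski in dermal Sca1+ against subcutaneous, -0.29 for Skil in epidermal against dermal Sca1+, and 0.0771 for Skil in dermal CCR6+ against subcutaneous.

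Other uncalled log2 values changed sign too. Tgfbr2 in epidermal against dermal CCR6+ was -0.0053 with at least 5 CPM in 2 libraries, and Skil in epidermal against dermal Sca1+ was -0.0036 with only the groups compared. In limma, Skil was -0.13 in that comparison, Tgfbr3 -0.0396 in epidermal against dermal CCR6+, and Tgfbr1 0.10 in dermal Sca1+ against subcutaneous. Leaving out 1 library gave -0.30 to 0.26 for Tgfbr2 in epidermal against subcutaneous. In epidermal against dermal CCR6+ it gave -0.38 to 0.18 for Tgfbr2, -0.23 to 0.58 for Tgfbr3 and -0.24 to 0.54 for Ski. It gave -0.31 to 0.215 for Skil in epidermal against dermal Sca1+ and -0.10 to 0.21 for Tgfb1 within the dermis. In dermal CCR6+ against subcutaneous it gave -0.0175 to 0.15 for Tgfbr2 and -0.48 to 0.0129 for Skil. In dermal Sca1+ against subcutaneous it gave -0.33 to 0.31 for Tgfbr1, -0.38 to 0.47 for Tgfbr3, -0.67 to 0.0183 for Smad3 and -0.32 to 0.14 for Ski.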
